A study of Mus musculus with 58 samples.

Results

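The 7 genes described here were *H60b*, *Mylk3*, *Rspo1*, *Lamp5*, *Cpne5*, *Mtus2* and *Tbc1d30*, out of 15171 genes in the count table of a mouse study of traumatic brain injury (TBI). They were chosen by their CPM in these same data, as neuronal genes with lower values after TBI than after sham surgery in every genotype. Their TBI against sham values are therefore a description and carry no test. Tests are given for *APOE* isoform, *Abca1* copies and sex, which the choice did not use. The relatives of each gene were tested for TBI against sham in the same mice. Their lists were drawn up with earlier results of these data known, so those tests are not independent of the choice.

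RNA-seq was performed on the cortex and hippocampus of 58 mice, frozen together from a 1.5 mm coronal section at the injury site, 14 days after surgery done at 3 months of age. The subcortical tissue of the section was removed before freezing. All mice were on the C57BL/6 background and expressed human APOE3 or APOE4 in place of mouse apoE, and each isoform was combined with either 2 functional copies of *Abca1* (Abca1+/+) or a single one (Abca1+/-). *Abca1* codes for the transporter that loads lipid onto apoE. Injured mice received a controlled cortical impact of 1 mm depth with a 3 mm tip on the left parietal cortex through a 4.5 mm craniotomy, and sham mice had the craniotomy without the impact. There were 8 sham and 8 TBI mice in E3/Abca1+/+, 7 and 6 in E3/Abca1+/-, 7 and 7 in E4/Abca1+/+, and 7 and 8 in E4/Abca1+/-, with both sexes in every group. No group had mouse apoE or was left without surgery, so every value below is within craniotomized mice that carry a human *APOE* gene. Each library held between 4421308 and 37877346 counts. Values are given as CPM, the count scaled to the library total and the TMM factor, or as log2 fold changes from edgeR. The standard error (SE) beside them was derived from the edgeR F statistic.

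The 7 genes have little in common by function. *H60b* codes for a cell surface ligand of NKG2D, the activating receptor of natural killer cells and some T cells. *Mylk3* codes for a myosin light chain kinase known best from heart muscle. *Rspo1* codes for R-spondin 1, a secreted protein that binds LGR receptors and keeps the ligases ZNRF3 and RNF43 from removing Wnt receptors. *Lamp5* codes for a brain member of the lysosome-associated membrane protein family, found in cortical neurons and a class of interneurons. *Cpne5* codes for a copine, a protein that binds phospholipids in response to calcium. *Mtus2* codes for a protein that binds microtubules and the plus-end protein EB1, and *Tbc1d30* codes for a GTPase-activating protein of Rab proteins.

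Controlled cortical impact destroys neurons beneath the tip and is followed by reactive astrocytes and microglia around the lesion. In bulk tissue, fewer cells of a type and less RNA per cell cannot be told apart. Of 10 general neuron markers, 8 fell in E3/Abca1+/+, 8 in E3/Abca1+/-, 5 in E4/Abca1+/+ and 7 in E4/Abca1+/- mice (edgeR quasi-likelihood test, adjusted p under 0.05), while all 6 microglia markers and 5 of 6 astrocyte markers rose in every genotype. Without a library described below, 8 neuron markers fell in E4/Abca1+/- mice. The summed neuron markers ran from 8456 to 9517 CPM in sham and from 6075 to 8542 CPM in injured mice, and the summed microglia markers from 298 to 451 CPM and from 539 to 1078 CPM. The part of these marker changes in the lower values of the 7 genes was not tested.

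The description of the set as the neuronal genes most lowered after TBI held only in part. *H60b* and *Mylk3* are not known as markers of neurons, and the set was not made up of the lowest genes. Ranked by the mean log2 fold change over the 4 genotypes, *H60b* was the lowest of all 15171 genes at -1.5, *Mylk3* the 4th at -1.24, *Rspo1* the 6th at -1.18 and *Lamp5* the 22nd at -0.90. *Tbc1d30* stood at rank 223 with -0.45, *Cpne5* at rank 250 with -0.44 and *Mtus2* at rank 425 with -0.35, so that 418 genes outside the set were at least as low as *Mtus2*. This ranking is by mean size only, while the set was picked for lower values in every genotype. It uses the same values as the choice, so the ranks are a description. The count table held only genes with at least 1 CPM in 6 or more mice. *H60b* reached 1 CPM only in sham mice and in 1 injured library (1.06 CPM). It is thus in the table through the sham mice, and its rank rests on few counts in injured mice. Of these 418 genes, 164 were called lower in all 4 genotypes (edgeR, adjusted p under 0.05), next to 391 of all 15171 genes. The ranking and the calls come from the same fits, so a larger share among the 418 was set in advance. The 5 lowest genes outside the set were *Gm10635* at -1.42, *Arc* at -1.24, *Npas4* at -1.20, *Adgrd1* at -1.12 and *Krt80* at -1.09. *Gm10635*, with a sham mean of 0.89 CPM, was not called lower in all 4 genotypes, while *Arc*, *Npas4*, *Adgrd1* and *Krt80* were. Within the set, *Cpne5* also fell short of that mark, in E4/Abca1+/- mice with all libraries kept. *Arc* and *Npas4* are activity-induced genes of neurons.

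One injured library, replicate 8 of E4/Abca1+/-, stood apart from the other 57 in striatal and dentate gyrus markers. Its 5 striatal markers, among them *Drd1*, *Drd2*, *Adora2a* and *Rgs9*, summed to 420 CPM against at most 119.9 CPM in any other library, and each of the 4 named was higher there than in every other library. Its summed dentate gyrus markers were the lowest of all libraries, with *Prox1* at 7.95 CPM against 13.8 CPM or more elsewhere and *C1ql2* at 0.91 CPM against 13.4 CPM or more. It also held the highest *Lamp5* (190.1 CPM) and *Cpne5* (99.5 CPM) of all 58 mice. Log2 fold changes of the 7 genes and counts of called genes in E4/Abca1+/- mice are therefore also given without this library. Choroid plexus markers set more libraries apart. Their sum lay between 289 and 2009 CPM in 16 libraries, the one with striatal markers among them at 289 CPM, and between 9.01 and 38.0 CPM in the other 42. Of the 16, 8 were sham and 8 injured, and the groups held from 0 of 8 (sham E3/Abca1+/+) to 4 of 8 (injured E4/Abca1+/-). Without the 16 libraries the log2 fold changes after TBI of all 7 genes stayed below 0 in every genotype, with *H60b* between -1.88 and -1.19 and *Mtus2* between -0.46 and -0.21. The highest sum of thalamic markers was 200.3 CPM in replicate 2 of sham E4/Abca1+/+, and the next was 151.5 CPM.

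**Figure D1:**
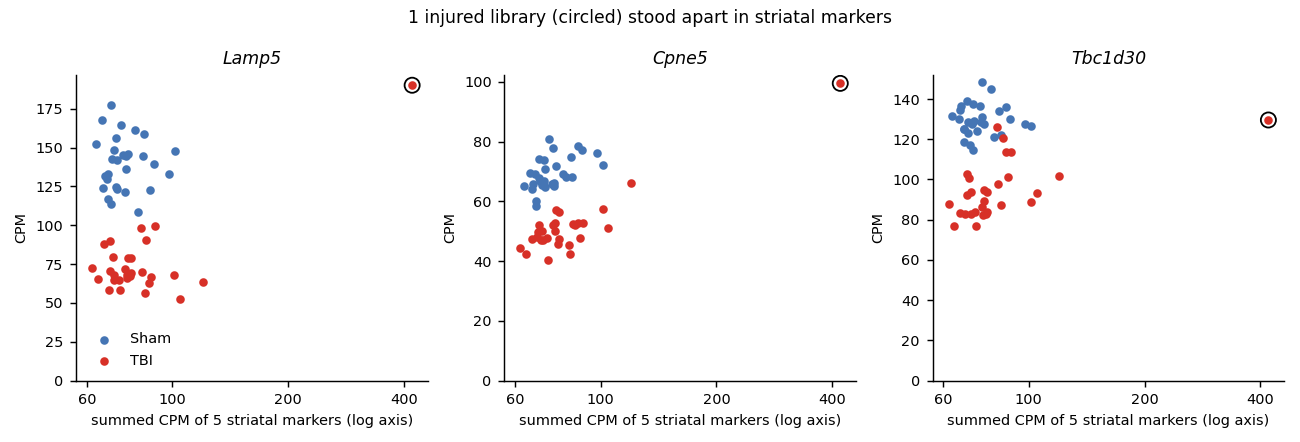
CPM of *Lamp5*, *Cpne5* and *Tbc1d30* (y axes) against the summed CPM of 5 striatal markers (x axis, log scale), with 1 point for each of 58 mice, sham in blue and TBI in red. The circled injured library has striatal markers at 420 CPM and lies above all other injured mice in each panel, with *Lamp5* at 190.1 CPM.

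The stretches of DNA before the start sites of 3 of these genes are printed here because *Lamp5* and *Rspo1* varied together from mouse to mouse, and because *Mtus2* held the only match to any motif searched. RefSeq promoters (GRCm38.p6) were found for 5 of the 7 genes, as 8 windows of 250 bases before a start site, and none was found for *H60b* and *Tbc1d30*. The start sites are those of RefSeq. The *Lamp5* window printed here runs past the GENCODE start of the gene at chr2:136052239, and a further *Lamp5* window is not printed. The windows of *Lamp5* (chr2:136052089-136052338, plus strand), *Rspo1* (chr4:124986180-124986429, plus strand) and the second start of *Mtus2* (chr5:148264967-148265216, plus strand) read as follows, 5′ to 3′, with the motif match in capitals.
Lamp5: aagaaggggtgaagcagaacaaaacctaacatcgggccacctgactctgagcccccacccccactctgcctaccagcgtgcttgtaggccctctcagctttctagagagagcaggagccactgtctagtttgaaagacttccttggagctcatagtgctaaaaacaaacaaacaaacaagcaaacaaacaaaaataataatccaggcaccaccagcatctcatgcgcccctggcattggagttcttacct
Rspo1: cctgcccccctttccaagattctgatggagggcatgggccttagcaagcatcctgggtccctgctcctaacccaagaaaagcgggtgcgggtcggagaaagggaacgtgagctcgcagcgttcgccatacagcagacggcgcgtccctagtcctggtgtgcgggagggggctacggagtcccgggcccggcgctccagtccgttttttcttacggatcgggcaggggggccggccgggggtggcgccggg
Mtus2: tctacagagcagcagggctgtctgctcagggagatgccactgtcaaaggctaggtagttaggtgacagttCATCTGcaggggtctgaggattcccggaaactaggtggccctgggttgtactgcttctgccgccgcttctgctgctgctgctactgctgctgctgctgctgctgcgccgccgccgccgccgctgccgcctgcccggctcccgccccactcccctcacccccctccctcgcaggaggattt

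The 3 windows differed in composition, with 49.2% G and C in *Lamp5*, 66.8% in *Rspo1* and 64.8% in *Mtus2*. Both strands of the 8 windows were searched for 4 motifs of neuronal and activity-driven transcription. The cAMP response element TGACGTCA, the AP-1 element TGANTCA and the EGR element GCGNGGGCG had no match, and they occur in 1.55%, 6.75% and 4.7% of all 32851 mouse windows of this length. The NeuroD E-box CAGATG matched once, on the minus strand of the *Mtus2* window between 180 and 175 bases before the start, and it occurs in 14.44% of all windows. None of the searched motifs overlapped another at that position. These matches describe letters in the windows, not binding.

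*Lamp5* (Entrez 76161, chr2:136052239-136069917, GRCm38, 6 exon blocks) was the most abundant of the 7 genes per length, at 47.7 ± 5.81 CPM per kb of exon (SD, n = 29) in sham mice. In E3/Abca1+/+ mice, *Lamp5* ran from 114 over a median of 130.3 to 164 CPM in 8 sham mice, and from 52.3 over 67.6 to 79.2 CPM in 8 injured mice. In E3/Abca1+/- mice, *Lamp5* ran from 109 over 133 to 156 CPM in 7 sham mice and from 56.3 over 65.3 to 72.4 CPM in 6 injured mice. Both E3 genotypes were thus without overlap between sham and injured mice. In E4/Abca1+/+ mice, *Lamp5* ran from 123 over 145 to 177 CPM in 7 sham mice and from 68.3 over 90.0 to 99.6 CPM in 7 injured mice. The E4/Abca1+/- mice had *Lamp5* values that ran from 125 over 139 to 168 CPM in 7 sham mice and from 58.0 over 70.9 to 190.1 CPM in 8 injured mice. The highest of these injured values was the library with striatal markers, and the next was 87.8 CPM, below every sham mouse. The injured mean was 49.2%, 47.9%, 57.4% and 59.9% of the sham mean in these 4 genotypes, and 49.5% in the last without that library. The log2 fold changes were -1.02 ± 0.08, -1.06 ± 0.08, -0.79 ± 0.09 and -0.74 ± 0.20 (SE), the last moving to -1.01 ± 0.09 without that library.

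**Figure D2:**
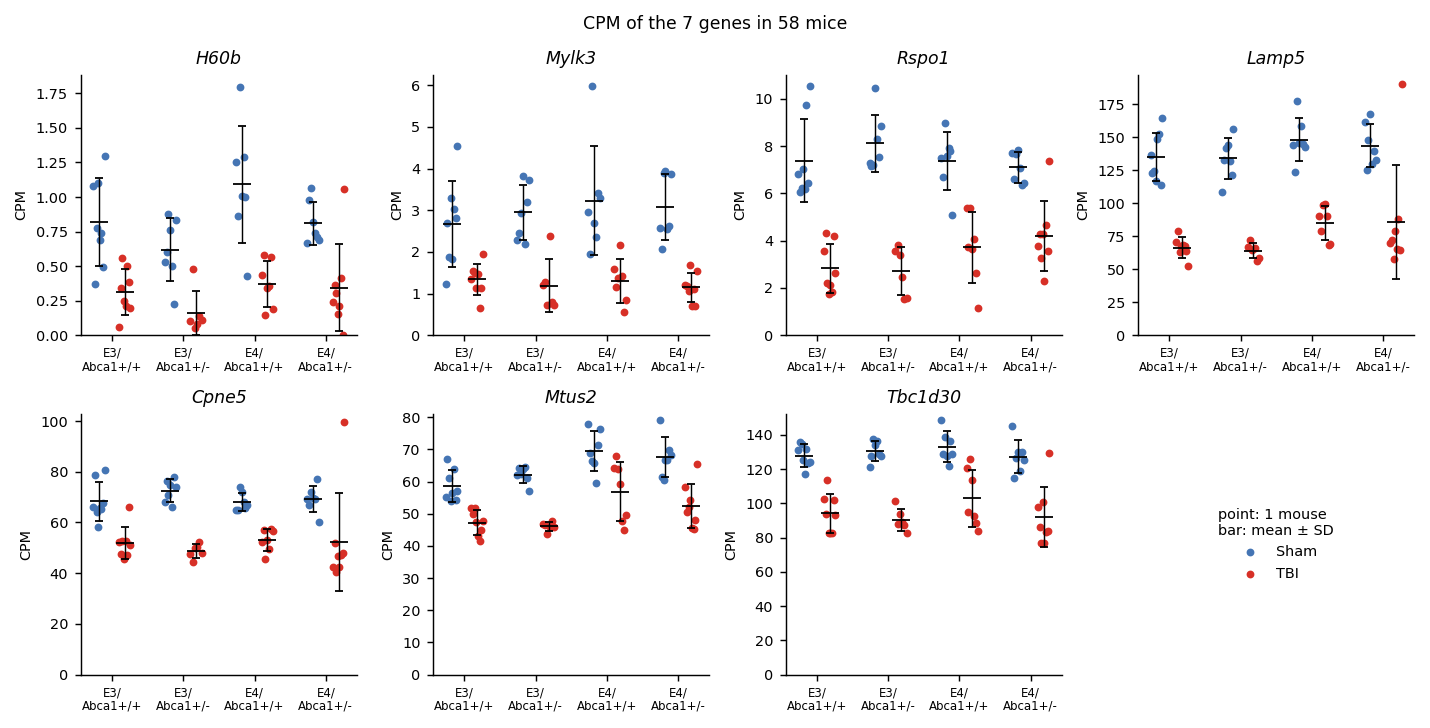
CPM of each of the 7 genes (y axis, from 0) in the 4 genotypes (x axis), with 1 point a mouse, sham in blue and TBI in red, and bars for mean ± SD. Injured points lie mostly below the sham points, and the E4/Abca1+/- injured group has 1 high point in *H60b*, *Rspo1*, *Lamp5*, *Cpne5* and *Tbc1d30*, the library with striatal markers.

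*Lamp1*, *Lamp2* and *Cd68*, which code for the major membrane proteins of lysosomes and for a macrophage lysosomal protein, were the 3 family members in the table, and all 3 rose in every genotype (edgeR quasi-likelihood test, adjusted p from 2.58e-08 to 0.0012). Without the library with striatal markers all 3 also rose in E4/Abca1+/- mice, *Lamp1* by 0.59 ± 0.07 and *Cd68* by 2.47 ± 0.23. With it, *Lamp1* rose by 0.44 ± 0.06, 0.45 ± 0.05, 0.45 ± 0.07 and 0.60 ± 0.07 (log2, SE) and *Cd68* by 2.25 ± 0.18, 2.21 ± 0.18, 2.16 ± 0.28 and 2.52 ± 0.23 in E3/Abca1+/+, E3/Abca1+/-, E4/Abca1+/+ and E4/Abca1+/- mice. Over all genes, 13.3%, 13.7%, 9.24% and 19.7% were called higher in these 4 comparisons, and 9.49%, 10.1%, 4.5% and 12.7% lower. The counts for the other lists of relatives below are to be read beside these shares.

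*Rspo1* (Entrez 192199, chr4:124986430-125009099, GRCm38) was present at a lower level, 3.86 ± 0.66 CPM per kb (SD, n = 29) in sham mice. In E3/Abca1+/+ mice, *Rspo1* ran from 6.05 over 6.62 to 10.6 CPM in sham mice and from 1.75 over 2.43 to 4.31 CPM in injured mice. In E3/Abca1+/- mice, *Rspo1* ran from 7.16 over 7.55 to 10.5 CPM and from 1.54 over 2.93 to 3.81 CPM. No injured E3 mouse reached the lowest sham mouse of its genotype. In E4/Abca1+/+ mice, *Rspo1* ran from 5.11 over 7.58 to 8.98 CPM in sham mice and from 1.14 over 3.75 to 5.40 CPM in injured mice, with 5 of 7 injured mice below every sham mouse. The E4/Abca1+/- sham mice ran from 6.34 over 7.08 to 7.84 CPM and the injured mice from 2.31 over 4.02 to 7.39 CPM, the last being the library with striatal markers, and without it the highest injured mouse was at 4.67 CPM. The log2 fold changes were -1.42 ± 0.20 and -1.56 ± 0.20 in E3 and -0.97 ± 0.23 and -0.75 ± 0.17 in E4 mice (SE, Abca1+/+ then Abca1+/-), the last moving to -0.91 ± 0.13 without that library.

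Of 21 other genes of the R-spondin and Wnt pathway, 3, 4, 2 and 5 passed the edgeR test in E3/Abca1+/+, E3/Abca1+/-, E4/Abca1+/+ and E4/Abca1+/- mice, each of them upward. Of all genes, 13.3%, 13.7%, 9.24% and 19.7% were called higher in the same comparisons. Without the library with striatal markers 7 rose and 1 fell in E4/Abca1+/- mice, where 20.5% of all genes were then called higher and 14.4% lower. *Lrp5*, a Wnt co-receptor, rose in all 4, by 0.39 ± 0.14, 0.41 ± 0.10, 0.63 ± 0.14 and 0.58 ± 0.12 (log2, SE), and so did the ligand *Wnt7b*, by 0.37 ± 0.09, 0.24 ± 0.07, 0.35 ± 0.09 and 0.28 ± 0.10, with adjusted p from 0.00085 to 0.0457 over both genes. In E4/Abca1+/- mice without that library they rose by 0.58 ± 0.12 and 0.31 ± 0.09. *Tcf7l2*, a transcription factor of the pathway, passed the test in both Abca1+/- genotypes, with 0.93 ± 0.28 in E3 and 1.03 ± 0.21 in E4. Its values in E3/Abca1+/+ and E4/Abca1+/+ mice were 0.39 ± 0.21 and 0.04 ± 0.54. For a difference of the injury change between *Abca1* copies edgeR called 0 of 15171 genes. In E4/Abca1+/- mice without the library with striatal markers *Tcf7l2* was at 1.08 ± 0.22, and of 5 thalamic markers 2 rose and 0 fell. With all libraries 1, 2, 2 and 2 of these markers rose in E3/Abca1+/+, E3/Abca1+/-, E4/Abca1+/+ and E4/Abca1+/- mice, and 1, 0, 0 and 0 fell. The part of thalamic tissue in these values was not tested. The paralog *Rspo3* had log2 fold changes of 0.12, 0.15, 0.18 and 0.19 and *Rspo2* of 0.13, 0.20, 0.21 and 0.08, of which none passed the test. Without the library with striatal markers *Rspo3* passed it in E4/Abca1+/- mice, at 0.24 ± 0.08 (edgeR adjusted p = 0.0390). The receptor *Lgr4* and the feedback target *Axin2* did not pass it either, with values between -0.04 and 0.07 and between -0.12 and 0.06.

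**Figure D3:**
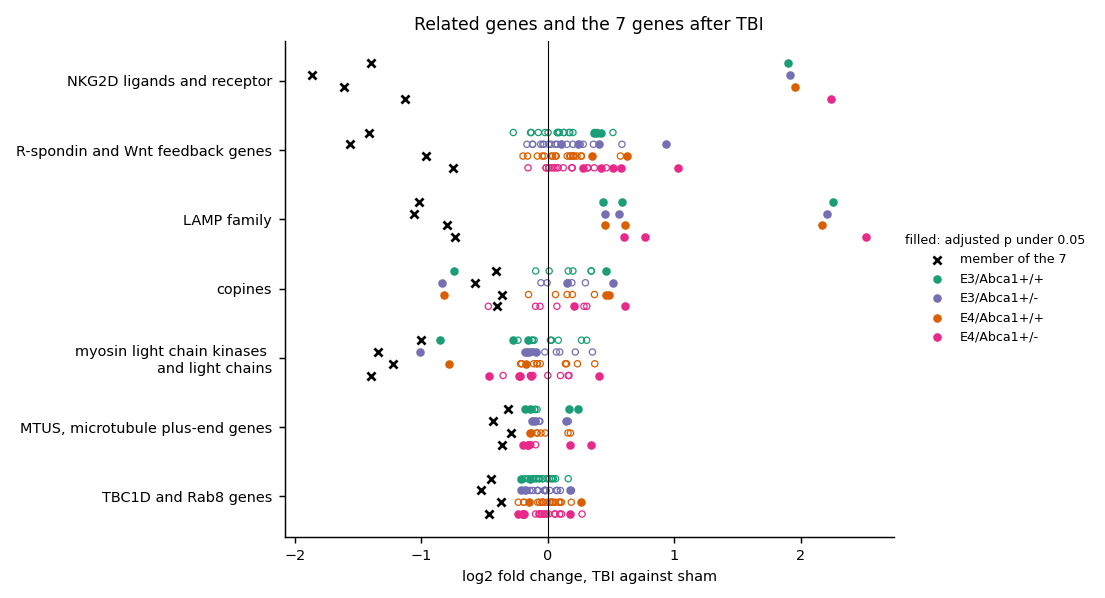
Log2 fold change of TBI against sham (x axis) for 73 genes related to the 7 (coloured points, filled where the adjusted p is under 0.05) and for the 7 genes themselves (crosses), by gene list (y axis) and genotype (colour). The LAMP relatives and *Tyrobp* lie to the right of 0 and *Lamp5* and *H60b* to the left, while the other lists scatter on both sides of 0.

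*Cpne5* (Entrez 240058, chr17:29155556-29238167, GRCm38, minus strand) held 5.12 ± 0.41 CPM per kb in sham mice (SD, n = 29). In E3/Abca1+/+ mice, *Cpne5* ran from 58.4 over 65.8 to 80.7 CPM in sham mice and from 45.7 over 51.7 to 66.2 CPM in injured mice, of which 7 of 8 lay below every sham mouse. In E3/Abca1+/- mice, *Cpne5* ran from 66.0 over 74.0 to 78.0 CPM and from 44.4 over 49.0 to 52.3 CPM. In E4/Abca1+/+ mice, *Cpne5* ran from 64.7 over 67.0 to 74.1 CPM and from 45.4 over 52.9 to 57.3 CPM. Sham and injured mice did not overlap in the latter 2 genotypes. The E4/Abca1+/- mice had *Cpne5* values from 60.1 over 69.3 to 77.2 CPM in sham mice and from 40.4 over 47.1 to 99.5 CPM in injured mice, with the highest again the library with striatal markers and the next at 52.0 CPM. The log2 fold changes were -0.41 ± 0.07, -0.57 ± 0.05, -0.36 ± 0.06 and -0.40 ± 0.15 (SE), and the last was -0.60 ± 0.06 without that library.

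The copine family was mixed, and in E4/Abca1+/- mice without that library 3 of 8 rose and 1 fell. *Cpne3* rose in every genotype, by 0.46 ± 0.11, 0.51 ± 0.08, 0.49 ± 0.09 and 0.61 ± 0.12 (log2, SE, adjusted p from 0.00011 to 0.0043). *Cpne9* fell in 3 genotypes, by 0.74 ± 0.08, 0.84 ± 0.14 and 0.82 ± 0.14 in E3/Abca1+/+, E3/Abca1+/- and E4/Abca1+/+ mice, with log2 fold changes below those of *Cpne5* itself. *Cpne9* in E4/Abca1+/- mice had a log2 fold change of -0.47 ± 0.25 (edgeR adjusted p = 0.167). Without the library with striatal markers it was -0.80 ± 0.14 (edgeR adjusted p = 0.00022), so that the missing call there rested on 1 library. *Cpne4*, *Cpne6* and *Cpne8* passed the test in no genotype, with *Cpne6* between 0.07 and 0.20.

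*Mtus2* (Entrez 77521, chr5:147957320-148316065, GRCm38) was at 4.99 ± 0.51 CPM per kb in sham mice, a level that overlapped that of *Cpne5*. In E3/Abca1+/+ mice, *Mtus2* ran from 54.0 over 56.7 to 66.9 CPM in sham mice and from 41.6 over 47.6 to 51.8 CPM in injured mice. In E3/Abca1+/- mice, *Mtus2* ran from 57.1 over 62.3 to 64.4 CPM and from 43.8 over 46.2 to 47.9 CPM. Sham and injured mice did not overlap in either E3 genotype. In E4/Abca1+/+ mice, *Mtus2* ran from 59.7 over 68.9 to 77.8 CPM in sham mice and from 45.1 over 59.2 to 67.8 CPM in injured mice, of which 4 of 7 lay below every sham mouse. In E4/Abca1+/- mice, *Mtus2* ran from 60.6 over 66.8 to 79.2 CPM and from 45.4 over 51.3 to 65.4 CPM, the last again the library with striatal markers. The decreases were the smallest of the set, with log2 fold changes of -0.31 ± 0.06, -0.43 ± 0.04, -0.29 ± 0.09 and -0.37 ± 0.08 (SE), the last moving to -0.42 ± 0.07 without that library.

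Of 8 measured microtubule genes related to *Mtus2*, 2, 1, 0 and 2 rose and 2, 2, 1 and 3 fell in the 4 genotypes, and without the library with striatal markers 2 rose and 4 fell in the last. The paralog *Mtus1* rose in E3/Abca1+/+ mice by 0.24 ± 0.08 and in E4/Abca1+/- mice by 0.34 ± 0.07 (edgeR, adjusted p = 0.032 and 0.00063), with 0.16 ± 0.07 in each of the other 2 genotypes (adjusted p = 0.0998 and 0.168). *Mapre1*, which codes for EB1, rose in 3 genotypes by 0.17 ± 0.05, 0.15 ± 0.03 and 0.17 ± 0.05, and was at 0.18 ± 0.06 in E4/Abca1+/+ mice (adjusted p = 0.0626).

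*Tbc1d30* (Entrez 74694, chr10:121263820-121351278, GRCm38, minus strand) was the second most abundant per length, at 19.2 ± 1.15 CPM per kb (SD, n = 29) in sham mice. Its sham values lay between 115 and 149 CPM over all genotypes, and its injured values between 76.7 and 126 CPM apart from 129.6 CPM in the library with striatal markers. Sham and injured mice did not overlap in the 2 E3 genotypes, where the highest injured mouse of E3/Abca1+/+ was at 113.5 CPM and the lowest sham mouse at 117 CPM. The log2 fold changes were -0.45 ± 0.06, -0.53 ± 0.05, -0.37 ± 0.09 and -0.47 ± 0.09 (SE), and -0.56 ± 0.07 in E4/Abca1+/- mice without that library.

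Of 20 related genes of the TBC1D family and the Rab8 pathway, 0, 1, 1 and 1 rose and 2, 2, 1 and 5 fell in the 4 genotypes, and without that library 1 rose and 4 fell in the last. *Rab11fip3*, a Rab11 effector, fell in all 4, by 0.21 ± 0.04, 0.18 ± 0.04, 0.15 ± 0.05 and 0.24 ± 0.05 (log2, SE, adjusted p from 0.0011 to 0.0375). *Rab8a* and *Rab8b*, the small GTPases of that pathway, passed the test in no genotype and had log2 fold changes between 0.03 and 0.11 and between -0.06 and 0.10.

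*Mylk3* (Entrez 213435, chr8:85324303-85386345, GRCm38, minus strand) and *H60b* (Entrez 667281, chr10:22158586-22288849, GRCm38) were the least abundant of the set, at 0.69 ± 0.22 and 0.69 ± 0.27 CPM per kb in sham mice (SD, n = 29), levels that did not differ beyond their spread. *Mylk3* ran from 1.24 to 5.99 CPM over the sham groups, with medians of 2.75, 2.94, 2.95 and 2.62 CPM in E3/Abca1+/+, E3/Abca1+/-, E4/Abca1+/+ and E4/Abca1+/- mice. Its injured values ran from 0.57 to 2.38 CPM, with medians of 1.41, 1.00, 1.37 and 1.15 CPM. Sham and injured mice overlapped in all genotypes except E4/Abca1+/-, where the highest injured mouse was at 1.68 CPM and the lowest sham mouse at 2.08 CPM. The log2 fold changes were -1.01 ± 0.24, -1.34 ± 0.26, -1.23 ± 0.28 and -1.40 ± 0.20 (SE), and the last was -1.46 ± 0.21 without the library with striatal markers.

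Among the relatives of *Mylk3*, of 12 measured myosin light chains, light chain kinases, calmodulins and phosphatase subunits, 0, 0, 0 and 1 rose and 3, 5, 2 and 4 fell in the 4 genotypes, and without that library 1 rose and 6 fell in the last. *Myl4*, an atrial and embryonic myosin light chain, fell by 0.85 ± 0.16, 1.01 ± 0.17 and 0.78 ± 0.18 in the first 3 genotypes (log2, SE, adjusted p from 0.00037 to 0.0065). *Myl4* in E4/Abca1+/- mice was at -0.35 ± 0.27 (adjusted p = 0.339), and at -0.71 ± 0.15 without the library with striatal markers (adjusted p = 0.0013). *Calm3*, a calmodulin gene, fell in 3 genotypes, by 0.16 ± 0.04, 0.17 ± 0.04 and 0.22 ± 0.04 in E3/Abca1+/+, E3/Abca1+/- and E4/Abca1+/- mice.

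*H60b* was counted at most 24 times in a library. In E3/Abca1+/+ mice, *H60b* ran from 0.37 over 0.76 to 1.30 CPM in sham mice and from 0.06 over 0.30 to 0.56 CPM in injured mice. In E3/Abca1+/- mice, *H60b* ran from 0.23 over 0.60 to 0.88 CPM and from 0.05 over 0.11 to 0.48 CPM. In both genotypes the highest injured mouse lay above the lowest sham mouse. In E4/Abca1+/+ mice, *H60b* ran from 0.43 over 1.01 to 1.80 CPM in sham mice and from 0.14 over 0.35 to 0.58 CPM in injured mice. In E4/Abca1+/- mice, *H60b* ran from 0.66 over 0.74 to 1.07 CPM and from 0 over 0.27 to 1.06 CPM, the last the library with striatal markers and the next at 0.41 CPM. The count was 3 or less in 6 of 8, 5 of 6, 5 of 7 and 2 of 8 injured libraries of the 4 genotypes, and 3 counts, the upper limit that an observed count of 0 allows, stand for 0.079 CPM in the deepest and 0.68 CPM in the shallowest library. The log2 fold changes of -1.40 ± 0.39, -1.86 ± 0.45, -1.61 ± 0.37 and -1.13 ± 0.34 (SE) are correspondingly wide, and the last was -1.48 ± 0.28 without that library.

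*H60b* shares 133 exon bases with *Raet1e* on the same strand and belongs to a family with similar copies, so that its counts are uncertain where reads could be split. *Cpne5* and *Tbc1d30* share 146 and 262 exon bases with genes on the opposite strand (*AC162182.2* and *Gm48435*), and whether strand was used in counting is not given in the sources used here. Of 13 NKG2D ligands, receptors and adaptors listed as relatives of *H60b*, the table holds only *Tyrobp*, an adaptor of microglia and natural killer cells. *Tyrobp* rose in every genotype, by 1.90 ± 0.16, 1.92 ± 0.14, 1.95 ± 0.28 and 2.24 ± 0.19 (log2, SE, edgeR adjusted p from 3.53e-08 to 0.00020), and by 2.16 ± 0.19 in E4/Abca1+/- mice without the library with striatal markers.

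**Figure D4:**
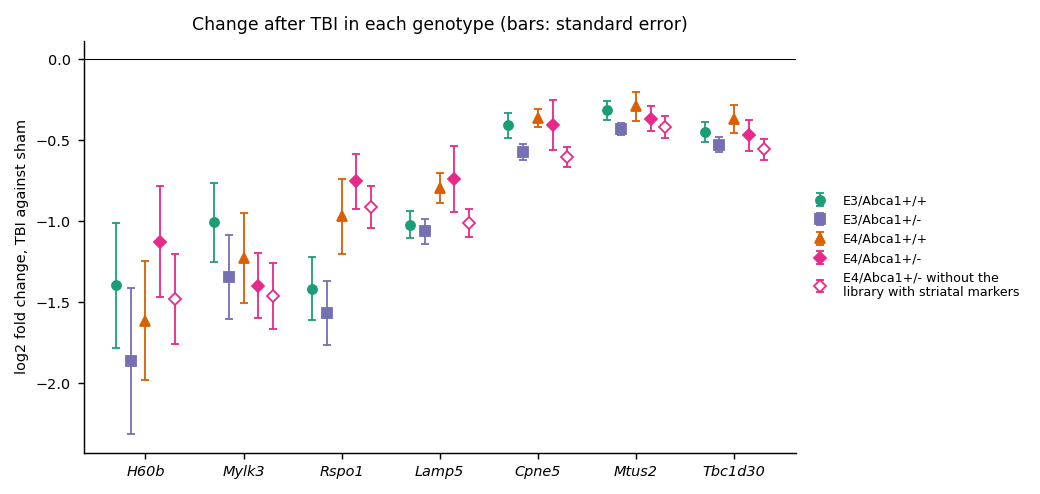
Log2 fold change of TBI against sham (y axis) for each of the 7 genes (x axis) in the 4 genotypes (symbols), with bars for the standard error. All values lie below 0, and in E4/Abca1+/- the open symbols, without the library with striatal markers, lie lower than the filled ones, as for *Cpne5* at -0.60 against -0.40.

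Counted by mouse, 28 of 29 injured mice had less *Lamp5* than every sham mouse of their own genotype, 27 less *Cpne5*, 27 less *Tbc1d30*, 26 less *Rspo1*, 25 less *Mtus2*, 22 less *Mylk3* and 21 less *H60b*. Counted by gene, 4, 5 and 2 of the 7 genes were without overlap in E3/Abca1+/+, E3/Abca1+/- and E4/Abca1+/+ mice, against 2.03%, 3.39% and 0.765% of all genes. In E4/Abca1+/- mice it was 1 of 7 with and 7 of 7 without the library with striatal markers, against 2.39% and 4.58% of all genes. Since the genes were picked for lower values after TBI, nothing is read from these counts.

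Some of the 7 genes differed by *APOE* isoform. Averaged over *Abca1* copies and injury, 3 of 7 genes were higher in APOE4 than in APOE3 mice (edgeR quasi-likelihood test over all 58 mice, Benjamini-Hochberg adjusted p under 0.05), where 15% of all genes were called in either direction and 8.03% as higher. At an unadjusted p under 0.05 it was 4 of 7, against 28.2% of all genes. *Mtus2* was higher by 0.21 ± 0.04 (log2, SE, adjusted p = 3.54e-05), *Lamp5* by 0.26 ± 0.07 (adjusted p = 0.0086) and *H60b* by 0.56 ± 0.20 (adjusted p = 0.0469). Without the library with striatal markers *Mtus2* stayed at 0.19 ± 0.03 (adjusted p = 4.37e-05) and *Lamp5* at 0.19 ± 0.05 (adjusted p = 0.0032), while *H60b* at 0.47 ± 0.19 no longer passed (adjusted p = 0.0789), and 14.8% of all genes were called. Without the 16 libraries with choroid plexus markers, where 6.41% of all genes were called by edgeR, *Mtus2* was at 0.23 ± 0.04 (adjusted p = 2.06e-05), *Lamp5* at 0.26 ± 0.06 (adjusted p = 0.0026) and *H60b* at 0.48 ± 0.22 (adjusted p = 0.184). *Rspo1* was at 0.22 ± 0.11 (adjusted p = 0.164), *Mylk3* at 0.10 ± 0.13, *Tbc1d30* at 0.05 ± 0.04 and *Cpne5* at 0.01 ± 0.05, none of which passed the test.

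The isoform difference of *Mtus2* was seen in mean CPM at both numbers of *Abca1* copies and in both surgeries. Sham Abca1+/+ mice had 58.6 ± 4.84 CPM with APOE3 (SD, n = 8) and 69.5 ± 6.30 CPM with APOE4 (n = 7), and injured Abca1+/+ mice 47.3 ± 3.83 (n = 8) and 56.8 ± 9.17 CPM (n = 7). Sham Abca1+/- mice had 62.2 ± 2.57 CPM with APOE3 (n = 7) and 67.6 ± 6.17 CPM with APOE4 (n = 7), and injured Abca1+/- mice 46.1 ± 1.36 (n = 6) and 52.5 ± 6.79 CPM (n = 8). The APOE4 mean was thus the higher of each pair, although the ranges overlapped. For *Lamp5*, the APOE4 and APOE3 means were 148 ± 16.5 and 135 ± 18.5 CPM in sham Abca1+/+ mice, and 85.0 ± 13.0 and 66.5 ± 7.63 CPM in injured Abca1+/+ mice (SD, n = 7 and 8).

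In single strata the isoform difference did not pass the test by edgeR. In sham Abca1+/+ mice 0 of 7 genes were called by the adjusted p (0.356% of all genes were) and 1 of 7, *Mtus2*, at an unadjusted p under 0.05 (8.81% of all genes), with a log2 difference of 0.24 ± 0.06, an unadjusted p of 0.00061 and an adjusted p of 0.104. DESeq2 called *Mtus2* there (adjusted p = 0.032). In sham Abca1+/- mice 0 of 7 were called by edgeR, against 5.11% of all genes, and 0 of 7 by DESeq2, which gave no adjusted p for 1 of the 7, and *Mtus2* alone had an unadjusted p under 0.05 (23% of all genes did), at 0.12 ± 0.05 (adjusted p = 0.182). In injured mice 0 of 7 were called by edgeR at either number of *Abca1* copies, against 0.211% of all genes in Abca1+/+ and 2.74% in Abca1+/- mice, and 2 of 7 had an unadjusted p under 0.05 in each, against 7.18% and 19.1% of all genes. These were *Lamp5* and *Mtus2* in Abca1+/+ mice and *Mtus2* and *Rspo1* in Abca1+/- mice, where without the library with striatal markers *Mtus2* alone remained. *Lamp5* differed by 0.36 ± 0.09 in Abca1+/+ (edgeR adjusted p = 0.201) and by 0.42 ± 0.22 in Abca1+/- mice (adjusted p = 0.308), the latter 0.15 ± 0.09 without the library with striatal markers.

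Having a single functional copy of *Abca1* did not move any of the 7 genes past the threshold. In sham mice 0 of 7 were called by edgeR or DESeq2 in either isoform, although DESeq2 gave no adjusted p for 2 of the 7 with APOE3 and 3 of the 7 with APOE4, and 0 of 7 had an unadjusted p under 0.05, where edgeR called 2.27% of all genes with APOE3 and 0.87% with APOE4, and 16.4% and 15.9% had such an unadjusted p. Over all groups 0 of 7 passed by either tool, and 0 of 7 at the unadjusted p, against 17.9% and 30.2% of all genes. Log2 differences in that fit lay between -0.33 ± 0.21 for *H60b* and 0.06 ± 0.11 for *Rspo1* (SE). Without the library with striatal markers 0 of 7 passed, against 18.1% of all genes, and 2 of 7 had an unadjusted p under 0.05, *H60b* at -0.42 ± 0.19 (edgeR adjusted p = 0.115) and *Tbc1d30* at -0.09 ± 0.04 (adjusted p = 0.0733). Sham Abca1+/- libraries held 13059250 to 28467098 counts and sham Abca1+/+ libraries 4421308 to 15941530, so depth moved with the *Abca1* genotype and its part was not tested. Libraries with choroid plexus markers were 3 of 7 sham E3/Abca1+/- and 0 of 8 sham E3/Abca1+/+, and 3 of 7 and 2 of 7 with APOE4. Without all 16 such libraries 0 of 7 genes passed over all groups, against 9.62% of all genes. *H60b* in sham APOE4 mice was then at -0.66 ± 0.27 (edgeR unadjusted p = 0.028, adjusted p = 0.36).

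No difference between females and males passed the test in any of the 7 genes. By edgeR and by DESeq2 0 of 7 were called, and 0 of 7 had an unadjusted p under 0.05, against 10.1% and 25.9% of all genes. The log2 differences of female against male mice lay between -0.11 ± 0.10 for *Rspo1* and 0.19 ± 0.12 for *Mylk3* (SE). Without the library with striatal markers, a female, *Mtus2* was at -0.09 ± 0.03 (adjusted p = 0.0687) and *Tbc1d30* at -0.09 ± 0.03 (adjusted p = 0.0713).

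The size of the injury difference was compared between isoforms, *Abca1* copies and sexes in 3 interaction tests, for which the choice of genes lower in every genotype limits what can be seen. By isoform 0 of 7 genes were called by edgeR or DESeq2 and 1 of 7 at an unadjusted p under 0.05, against 0.00659% and 2.79% of all genes. That gene was *Rspo1*, whose log2 fold change after TBI was 0.63 ± 0.21 less negative with APOE4 than with APOE3 (unadjusted p = 0.0044, adjusted p = 1.00), and 0.55 ± 0.20 without the library with striatal markers. By *Abca1* copies and by sex 0 of 7 were called by either tool and 0 of 7 at the unadjusted p, against 0% of all genes called in both and 2.64% and 7.47% at the unadjusted p.

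Without that library, smaller unadjusted p-values appeared for *Cpne5* by *Abca1* copies (-0.20 ± 0.06, unadjusted p = 0.0026, edgeR adjusted p = 1.00) and for *Rspo1* and *Lamp5* by sex. Injured females had 2.71 ± 1.07 CPM of *Rspo1* (SD, n = 13) and injured males 3.72 ± 1.05 CPM (n = 15), next to 7.53 ± 1.45 CPM in sham females (n = 14) and 7.45 ± 1.14 CPM in sham males (n = 15). The sex by injury difference was -0.53 ± 0.19 for *Rspo1* (edgeR adjusted p = 0.384) and -0.23 ± 0.09 for *Lamp5* (adjusted p = 0.414), so neither held up against the number of genes tested.

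Within groups, the genes varied together in some pairs only. Correlations were taken over log2(CPM + 1) after the group mean was subtracted, and they are descriptions over mice whose values share a library, its depth and 1 dissection. Over 58 mice the median Pearson r of the 21 pairs was 0.36, and over the 57 mice without the library with striatal markers it was 0.22. The closest pairs were *Mtus2* with *Tbc1d30*, at r = 0.71 over 58 and 0.66 over 57 mice, and *Rspo1* with *Lamp5*, at 0.64 and 0.62. *Lamp5* with *Cpne5* was at 0.58 over 58 mice but at 0.04 over 57. In injured mice alone this pair went from 0.63 with that library to -0.25 without it (28 mice). In the 29 sham mice the pair was at 0.38. *H60b* with *Mtus2* was the lowest pair at -0.07 and -0.26.

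The 7 genes also differed in the cell type markers they followed, given here over the 57 mice. *Tbc1d30* and *Mtus2* went with markers of cortical layers 2 to 4 (r = 0.74 and 0.65) and against those of the hippocampal CA fields (-0.53 and -0.42) and of oligodendrocyte precursors (-0.56 and -0.59). They were at -0.37 and -0.49 with choroid plexus markers. *Mylk3* and *Rspo1* were at 0.37 and 0.41 with layers 2 to 4. These values were 0.60 and 0.52 in injured mice but 0.09 and 0.02 in sham mice. *Lamp5* went with general neuron markers (0.56), at 0.51 in sham and 0.64 in injured mice. It went against astrocyte (-0.56) and microglia markers (-0.46), at -0.78 and -0.64 in injured mice but at -0.14 and -0.15 in sham mice. *Cpne5* was at 0.53 with striatal markers although the library richest in them was left out, and at -0.01 with general neuron markers. *H60b* reached no higher than 0.25 with any list of neurons and was at -0.40 with activity-induced genes. The lists mark cell types, activity or regions, and striatum and thalamus were not among the tissue meant to be kept. The part of the dissection in these correlations was not tested.

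**Figure D5:**
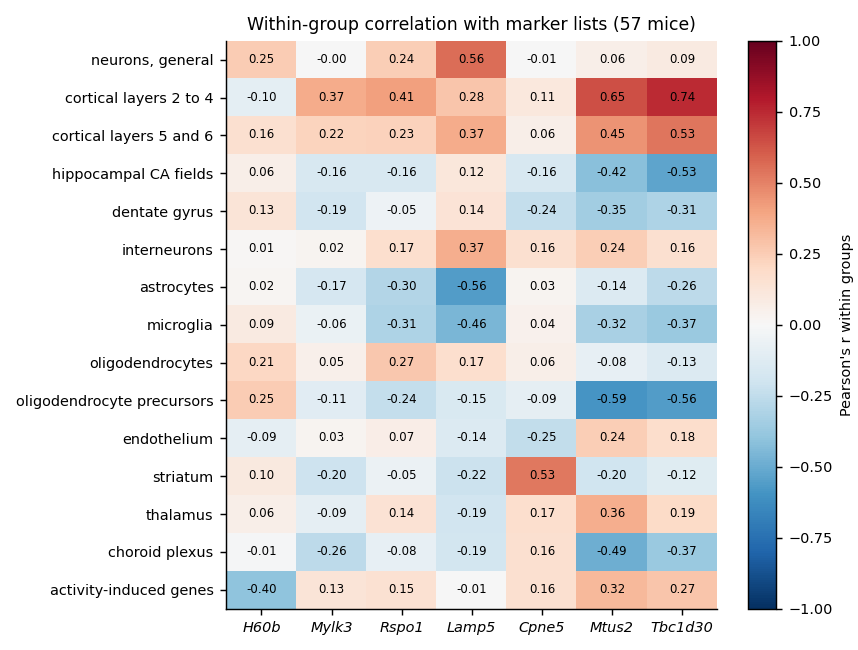
Pearson r within groups over 57 mice, without the library with striatal markers, between each of the 7 genes (columns) and the mean of each marker list (rows), red for positive and blue for negative values. *Tbc1d30* and *Mtus2* share a column pattern, with 0.74 and 0.65 in cortical layers 2 to 4, and *Cpne5* stands out at 0.53 in the striatum row.

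The genes most like each of the 7 were found by the same within-group r among 14374 genes. Over 58 mice *Lamp5* was followed most closely by *Hs3st2* (0.86), *Sema7a* (0.84) and *Gm11549* (0.84), *Tbc1d30* by *Mef2c* (0.84) and *Osbpl1a* (0.84), *Mtus2* by *Zfp651* (0.79), and *Rspo1* by *Stac2* (0.75) and *Mgll* (0.72). *Mylk3* was closest to *9130024F11Rik* (0.65) and *H60b* to *Pde7b* (0.59). *Cpne5* was closest to *Rgs9* (0.78), *Stk32c* (0.78), *Ppp1r1b* (0.78) and *Drd2* (0.77), of which most are known from striatal neurons. Without the library with striatal markers, *Rgs9*, *Stk32c* and *Ppp1r1b* left the nearest 5 genes of *Cpne5*, of which 1 was shared, and *Car10* (0.52) came first. *Hs3st2* left those of *Lamp5*, where *Pak1* (0.80) came first, and *Pde7b* those of *H60b*, where *Lonp2* (0.54) did. In all, 4 of 5 were shared for *Rspo1* and *Mtus2*, 3 of 5 for *Lamp5*, *Tbc1d30* and *Mylk3*, and 1 of 5 for *H60b*.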

How the data were processed

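RNA-seq read counts per gene were deposited for 58 mice. Per the labels and the study's methods, the authors aligned and counted reads with Subread/featureCounts (1.5.0) on mm10 and used RNA with an integrity number above 8. The deposited counts were whole numbers without normalization. Here 2 blank rows were dropped and 23 symbols turned into dates were restored by identifier. The filter of edgeR's filterByExpr over the 8 groups removed 0 of 15171 genes. A filter of 1 CPM in 6 mice also removed 0, so genes below that level were already absent from the deposited counts. Counts were scaled by TMM (0.954 to 1.038) and tested with edgeR 4.0.16 (quasi-likelihood, Benjamini-Hochberg over all genes) in R 4.3.3, in the groups compared or, for means, sex and interactions, in all 58 mice. The printed log2 fold changes include the small count that edgeR adds. Each SE is the log2 fold change without that added count, divided by the square root of the F statistic. The SE is therefore approximate, most of all at low counts as in *H60b*. DESeq2 1.42.0, other size factors, other filters, sex as a covariate and a single fit were alternatives. Scripts were tested on simulated data. Promoters came from RefSeq GRCm38.p6 and gene positions and exon lengths from GENCODE M21 (GRCm38).

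The 7 genes and all gene lists were chosen with earlier results of these data known. Named genes are the 7, their listed relatives (73 of 92 in the table), markers, the 5 genes most like each and the 5 lowest outside the set, and some of these are not reported here. Each mouse gave 1 library, and no pair within a group (183 pairs) was identical. The floor of 3 counts covers counting error only, and each SD and SE covers the spread between mice.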

Additional observations from a re-analysis of the deposited data

Results flagged for a closer look

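Each of the 56 combinations of gene and group was checked for a mouse far from the rest by Dixon's ratio, which flags about 1 in 20 groups by chance (2.8 of 56), and 10 were flagged.

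The injured E4/Abca1+/- library with striatal markers (replicate 8) accounted for 5 of them. It was far above the other 7 mice of its group in *H60b* (1.06 CPM, next 0.41), *Rspo1* (7.39 CPM, next 4.67), *Lamp5* (190.1 CPM, next 87.8), *Cpne5* (99.5 CPM, next 52.0) and *Tbc1d30* (129.6 CPM, next 101). *Mylk3* at 1.55 CPM was inside the range of its group there.

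The other 5 were in 5 different mice. *H60b* was at 0.48 CPM in replicate 2 of injured E3/Abca1+/- mice, with the next at 0.14 CPM. *Mylk3* was at 2.38 CPM in replicate 4 of the same group, with the next at 1.29 CPM, and at 5.99 CPM in replicate 3 of sham E4/Abca1+/+ mice, with the next at 3.4 CPM. *Cpne5* was at 66.2 CPM in replicate 7 of injured E3/Abca1+/+ mice, with the next at 52.9 CPM, and the striatal markers of that library were the second highest of all at 119.9 CPM. *Mtus2* was low, at 57.1 CPM, in replicate 7 of sham E3/Abca1+/- mice, with the next at 61.3 CPM.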

How the results depend on the processing

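Of 18 counts of called genes, 128 values under an alternative stayed on the same side or within 1.5 times, and 10 did not. Related genes lower after TBI in E3/Abca1+/+ mice went from 8 to 13 with DESeq2 and to 13 in a single fit over all 58 mice, and those higher in E3/Abca1+/- mice from 12 to 7 in the single fit. In E4/Abca1+/+ mice, those lower went from 5 to 9 with DESeq2 and to 8 with sex as a covariate, and those higher from 9 to 14 with sex as a covariate. Of the 7 genes, DESeq2 called 1 (*Mtus2*) between isoforms in sham Abca1+/+ mice against 0 with edgeR. The cause was not tested.

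The alternatives without the library with striatal markers, without the 16 libraries with choroid plexus markers and with the filter over the compared groups were chosen after seeing the data. The first moved the log2 fold changes of *H60b*, *Rspo1*, *Lamp5* and *Cpne5* in E4/Abca1+/- mice to -1.48, -0.91, -1.01 and -0.60, and ended the isoform call of *H60b*. In that genotype it moved the related genes called from 15 to 18 higher and from 12 to 16 lower. Without the 16 libraries, related genes higher went from 12 to 7 in E3/Abca1+/- and from 15 to 8 in E4/Abca1+/- mice, those lower in E4/Abca1+/+ mice from 5 to 2, and the isoform call of *H60b* ended, with fewer mice tested. Sham and injured groups were different mice, assigned at random per the study's methods, so no paired analysis applied. The labels carry no replicate numbers, and those used here only name mice. Groups held 6 to 8 mice, so single mice were not left out in turn. Depth limits *H60b*, at 3 counts or less in most injured libraries of 3 genotypes.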
